A study of Mus musculus with 14 samples.

Results

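The genes described here are the 10 core genes of the circadian clock, chosen by symbol and not by their values. They are the activators Arntl, Clock and Npas2, the Period genes Per1, Per2 and Per3, the Cryptochrome genes Cry1 and Cry2, and the REV-ERB genes Nr1d1 and Nr1d2. All 10 were among the 19660 genes of the liver count table and the 20203 genes of the kidney table. RNA came from adult male mice of 12 weeks that all carried the gene for human angiotensinogen, in its Hap -6A form, as a transgene, so neither diet group lacked it. Mice were on a normal diet or on high salt, with 4 liver libraries and 3 kidney libraries per diet, 14 in all. The labels give neither the length of the diet nor the hour of tissue collection, and they do not say whether each library came from a separate animal, so p-values measure the spread between these libraries. Libraries are numbered as titled, 1 to 4 for normal diet livers and 1 to 3 for each diet in kidney, except that high salt livers carry their column names, HS5 to HS8.

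The circadian clock is a feedback loop of transcription that runs in nearly every cell and gives liver and kidney genes a daily rhythm. BMAL1, the product of Arntl, pairs with CLOCK or NPAS2 and switches on the Per, Cry and Nr1d genes through E-boxes. PER and CRY proteins then block that pair, while the REV-ERB receptors made by Nr1d1 and Nr1d2 repress Arntl, Npas2 and Clock through ROR elements, which RORA and RORB activate. A further set of sites, the D-boxes, is driven by DBP, TEF and HLF and repressed by NFIL3. In mouse liver and kidney Arntl and Npas2 peak at a time of day when the Period and Nr1d genes are low, and Cry1 peaks later than the Period genes. Tissue taken at another hour can therefore have activators and repressors displaced in opposite directions, although not between all hours of the day. That is the pattern looked for here, and because the collection hour is not in the labels, diet and hour of collection cannot be told apart in any difference below.

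Liver libraries held 37267771 to 51487386 gene counts and kidney libraries 16046069 to 22004915. Normal diet liver libraries 1 and 2 had 2.30% and 2.06% of their counts in mitochondrial genes, against 11.3% to 29.6% in the other 6 liver libraries and 23.5% to 41.2% in kidney. The livers HS5 and HS6 were close to each other, with a chi-square per gene of 1.64 where sampling noise alone gives about 1 and the 11 other liver pairs of 1 diet gave 9.80 to 61.8. They entered as separate samples because they differed by more than sampling noise, but that does not show separate animals, and whether both came from 1 animal is not known. Summed to 1, they leave 3 high salt livers, 12 genes called in liver in place of 152, and neither Per3 nor Hlf among them. Hepatocyte markers (Alb, Apoa1, Ttr, Cps1, Tat) summed to 44472 to 67965 CPM (counts per 1000000) in normal diet livers and 84251 to 100408 in high salt livers, while the median log2 fold change of the same 5 genes was -0.15. Most of this sum was Alb, with means of 43943 and 74565 CPM, the only 1 of the 5 without overlap between the diets. Of the 5 genes, 2 lay above 0 and 3 below, and 0 were called. The proximal tubule markers Slc34a1, Lrp2 and Slc5a2 summed to 1526 to 2596 CPM in kidney and at most 6.57 in liver. The liver sums were 0.475 to 1.35 CPM under the normal diet and 1.15 to 6.57 CPM on high salt, highest in HS7 and HS8. Liver Lrp2 did not overlap between the diets (log2 fold change 1.41, edgeR adjusted p = 0.0852), and Slc34a1 and Slc5a2 were under the filter there. In tissue RNA, fewer cells of a type and less RNA per cell cannot be told apart.

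The stretches before 4 of the genes are shown first, because the gene that changed in liver, Per3, carries the letters of D-boxes there. A RefSeq promoter (GRCm38.p6) was found for 9 of the 10 genes, all but Per2. Motifs were searched on both strands from 250 bases before to 50 after each start. They were the E-box CACGTG, an E-box variant with the letters CACGTT, the D-box TTATGTAA, its variant TTATGCAA, and the ROR-element forms GTAGGTTA and GTAGGTCA. The E-box variant reads AACGTG when it lies on the other strand. Each sequence reads 5′ to 3′ along the gene's own strand, stops short of every annotated exon, and has the motifs in capitals.
Per3, chr4:151044666-151044915, minus strand: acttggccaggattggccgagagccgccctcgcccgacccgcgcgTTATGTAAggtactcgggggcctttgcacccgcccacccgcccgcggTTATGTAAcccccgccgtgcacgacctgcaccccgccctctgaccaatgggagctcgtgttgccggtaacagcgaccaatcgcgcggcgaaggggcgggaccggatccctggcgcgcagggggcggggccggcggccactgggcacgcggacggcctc
Per1, chr11:69098699-69098947, plus strand: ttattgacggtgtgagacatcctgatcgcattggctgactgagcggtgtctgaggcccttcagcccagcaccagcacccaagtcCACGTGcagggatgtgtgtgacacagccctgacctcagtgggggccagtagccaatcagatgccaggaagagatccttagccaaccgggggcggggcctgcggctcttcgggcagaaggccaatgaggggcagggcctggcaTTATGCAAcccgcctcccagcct
Cry1, chr10:85185065-85185304, minus strand: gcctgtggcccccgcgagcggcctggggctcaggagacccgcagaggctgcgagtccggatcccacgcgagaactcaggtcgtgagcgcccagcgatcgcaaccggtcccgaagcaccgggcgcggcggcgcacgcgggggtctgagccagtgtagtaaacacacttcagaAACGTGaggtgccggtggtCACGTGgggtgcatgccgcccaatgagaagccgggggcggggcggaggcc
Nr1d1, chr11:98775378-98775627, minus strand: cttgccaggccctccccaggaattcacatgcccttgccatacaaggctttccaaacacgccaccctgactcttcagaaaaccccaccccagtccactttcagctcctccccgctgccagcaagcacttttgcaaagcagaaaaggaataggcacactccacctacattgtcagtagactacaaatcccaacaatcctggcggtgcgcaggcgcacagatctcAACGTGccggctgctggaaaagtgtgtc
Per3 held the D-box letters 205 and 158 bases before its start. Of 32851 RefSeq promoters of this length 0.938% held TTATGTAA, and 7 of them (0.0213%) held it at more than 1 position. The share at more than 1 position was counted for this motif only. No relation of these letters to the change in Per3 was tested. Per1 held an E-box 166 bases before a start and the D-box variant 24 bases before it, letters present in 7.15% and 0.743% of promoters. Cry1 held the E-box variant at 79 bases and an E-box at 60 bases before its start, and Nr1d1 held the variant 28 bases before its start. CACGTT was present in 4.68% of promoters. Cry2 held it 166 bases before its start, and none of the motifs was in the windows of Npas2, Clock and Nr1d2. None of these matches overlapped another. A match is a description of the letters and not a binding site shown here.

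Arntl, the gene that REV-ERB repressors act on, carried both forms of the ROR element close to its starts, and the 30 bases around each are given to compare them.
Arntl, chr7:113207493-113207522, plus strand: ttggtcggaaaGTAGGTTAgtggtgcgaca
Arntl, chr7:113207529-113207558, plus strand: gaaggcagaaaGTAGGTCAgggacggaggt
GTAGGTTA lay 7 bases before the second of its RefSeq starts and GTAGGTCA lay after it. These letters were present in 0.317% and 0.621% of promoters.

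In liver, Per3 rose on high salt and was the only 1 of the 9 tested clock genes to pass the test. Its sister genes Per2 and Per1 were also higher on average without passing, the activators Arntl and Clock did not pass, and Npas2 was too low to test. Over all genes, 1% of 15130 were called in either direction and 0.595% were called higher (edgeR quasi-likelihood test, Benjamini-Hochberg adjusted p under 0.05). The median log2 fold change of the 9 clock genes was 0.32, with 7 above 0, against -0.023 over all genes tested. An unadjusted p under 0.05 was reached by 2 of the 9, Per2 and Per3, and by 21.2% of all genes.

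**Figure D1:**
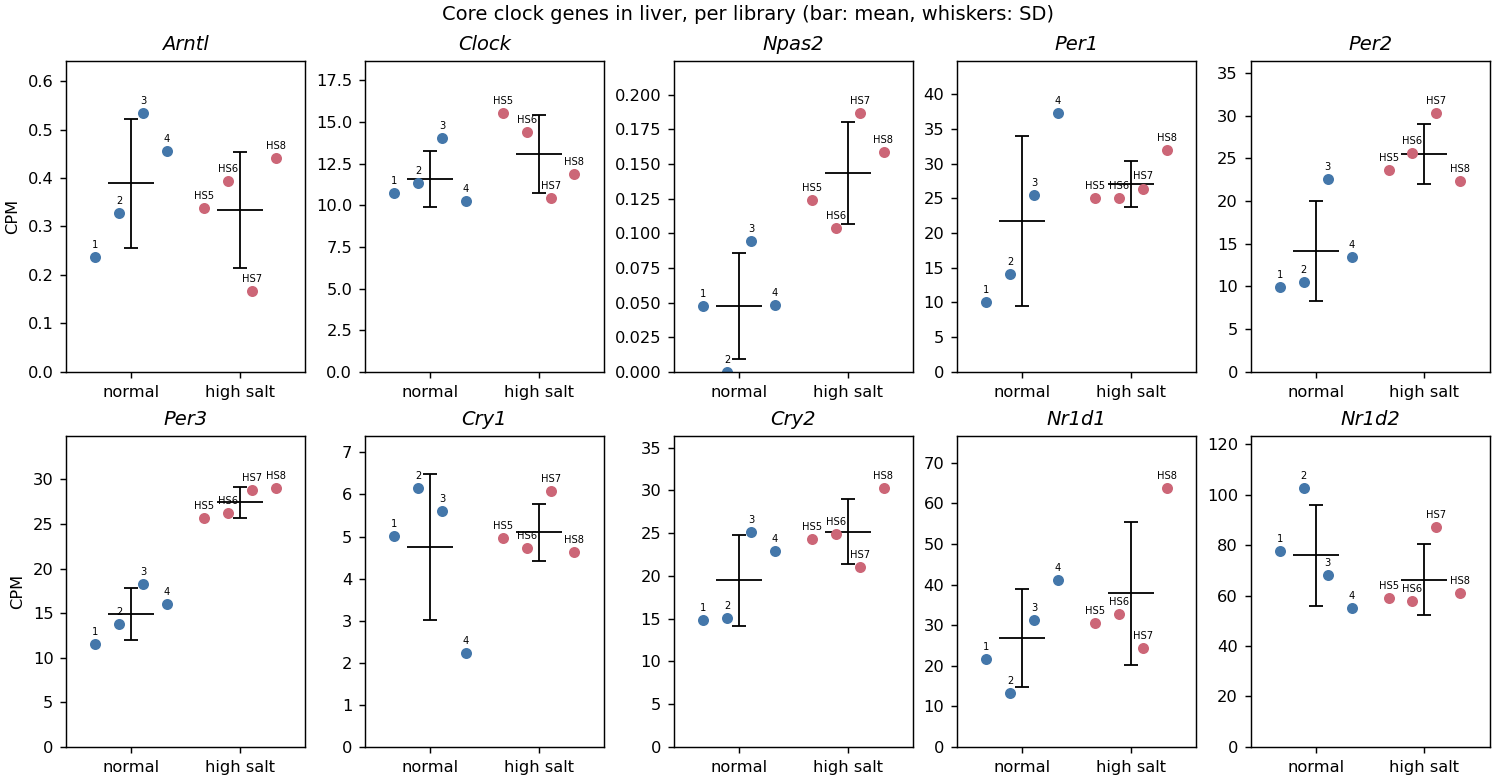
Normalised level (CPM, linear axis from 0) of the 10 clock genes in each liver library, normal diet in blue and high salt in red, with the mean as a bar and the SD as whiskers (n = 4 each). All 4 high salt libraries lie above all 4 normal diet libraries for Per3 and Npas2, and normal diet libraries 1 and 2 lie lowest for Per1, Per2, Per3, Cry2 and Nr1d1.

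Period proteins are the repressors that close the loop, and their mRNAs rise and fall through the day. Per3 (ENSMUSG00000028957, chromosome 4, 151003652 to 151044665, minus strand, GRCm38) stood at 11.6, 13.8, 18.3 and 16.05 CPM in normal diet libraries 1 to 4 and at 25.7, 26.2, 28.8 and 29.0 CPM in HS5 to HS8. The diets did not overlap, as was true of 12.5% of all liver genes tested. Mean Per3 went from 14.9 ± 2.89 to 27.4 ± 1.73 CPM (SD, n = 4 each), for a fold change of 0.88 on the log2 scale (SE 0.16, edgeR adjusted p = 0.044). The call was lost without normal diet library 1 (adjusted p = 0.106) or 2 (0.106), without HS5 (0.157), HS6 (0.164), HS7 (0.0611) or HS8 (0.135), with HS5 and HS6 summed (0.161), and without normal diet libraries 1 and 2 together (log2 fold change 0.68, adjusted p = 0.0954). Over its 19 alternatives the adjusted p of Per3 ran from 0.000121 to 0.164 and the log2 fold change from 0.68 to 0.98.

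Per2 (ENSMUSG00000055866, chromosome 1, 91415982 to 91459324, minus strand) had 9.98, 10.6, 22.6 and 13.5 CPM under the normal diet and 23.6, 25.6, 30.3 and 22.4 CPM on high salt. Library 3 lay within the high salt range and the other 3 normal diet libraries lay below it. Its log2 fold change was 0.85 (SE 0.26, edgeR adjusted p = 0.13), and it passed without normal diet library 3 (1.16, adjusted p = 0.0204) and with DESeq2 (adjusted p = 0.0403). Per1 (ENSMUSG00000020893, chromosome 11, 69095217 to 69109960, plus strand), the Period gene that also responds quickly to hormonal and light signals, had 10.1, 14.1, 25.5 and 37.3 CPM against 25.0, 25.0, 26.4 and 31.9 CPM. The high salt libraries fell inside the wide normal diet range. Its log2 fold change was 0.32 (SE 0.35, edgeR adjusted p = 0.617) and was -0.21 without normal diet libraries 1 and 2.

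Cryptochromes are the partners of PER in repression. Cry1 (ENSMUSG00000020038, chromosome 10, 85131700 to 85185064, minus strand) had 5.01, 6.15, 5.60 and 2.23 CPM under the normal diet and 4.97, 4.72, 6.09 and 4.63 CPM on high salt. Apart from library 4, the lowest of the 8, all lay in 1 range. Cry2 (ENSMUSG00000068742, chromosome 2, 92403646 to 92434043, minus strand) had 14.9, 15.1, 25.2 and 22.9 CPM against 24.3, 24.9, 21.1 and 30.3 CPM, with normal diet libraries 1 and 2 lowest. The log2 fold changes were 0.10 (SE 0.29, edgeR adjusted p = 0.862) for Cry1 and 0.37 (SE 0.21, adjusted p = 0.335) for Cry2, which was 0.066 without libraries 1 and 2. Cry2 shares 295 exon bases with D930015M05Rik, so its reads could be split between them.

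The REV-ERB receptors sense heme and repress the activator genes. Nr1d1 (ENSMUSG00000020889, chromosome 11, 98767932 to 98775333, minus strand) had 21.6, 13.3, 31.4 and 41.1 CPM under the normal diet and 30.6, 32.8, 24.5 and 63.8 CPM on high salt. HS8 stood highest and normal diet libraries 2 and 1 lowest. Nr1d2 (ENSMUSG00000021775, chromosome 14, 18204054 to 18239127, minus strand) had 77.5, 102.7, 68.3 and 55.2 CPM against 59.0, 58.0, 87.2 and 61.2 CPM. Here normal diet libraries 1 and 2 were high and HS7 stood apart from the other 3 high salt libraries. The log2 fold changes were 0.50 (SE 0.38, edgeR adjusted p = 0.462) for Nr1d1 and -0.19 (SE 0.22, adjusted p = 0.624) for Nr1d2. Without normal diet libraries 1 and 2 they were 0.065 and 0.10. Nr1d1 shares 263 exon bases with Thra on the opposite strand, and whether counting used strand is not given in the sources used here. Thra had 4.58 ± 0.75 CPM under the normal diet and 7.68 ± 1.79 CPM under high salt (SD, n = 4 each, log2 fold change 0.75, edgeR adjusted p = 0.119).

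The activators were, per length of exon, the least abundant clock genes of the liver. Arntl (ENSMUSG00000055116, chromosome 7, 113207465 to 113314126, plus strand) had 0.238, 0.327, 0.534 and 0.456 CPM on the normal diet, from 10, 12, 17 and 19 counts. On high salt it had 0.337, 0.394, 0.166 and 0.441 CPM, from 19, 19, 8 and 25 counts. The diets overlapped, with HS7 lowest and normal diet library 3 highest. The log2 fold change of -0.20 (SE 0.40, edgeR adjusted p = 0.796) turned to 0.0041 without HS7, and was smaller than its SE. Clock (ENSMUSG00000029238, chromosome 5, 76209868 to 76304792, minus strand) had 10.7, 11.3, 14.02 and 10.3 CPM against 15.5, 14.4, 10.4 and 11.9 CPM. HS5 and HS6 lay above all others and HS7 lay among the normal diet values, for a log2 fold change of 0.17 (SE 0.18, adjusted p = 0.588).

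Npas2, the paralogue that can take the place of CLOCK (ENSMUSG00000026077, chromosome 1, 39193731 to 39363236, plus strand), fell below the filter on low counts in liver. It had 2, 0, 3 and 2 counts under the normal diet and 7, 5, 9 and 9 counts on high salt. All high salt libraries lay above all normal diet libraries, at 0.124, 0.104, 0.187 and 0.159 CPM against 0.048, 0, 0.094 and 0.048 CPM. Of all liver genes tested, 12.5% did not overlap between the diets. The nearest libraries, normal diet 3 and HS6, differed by few counts, 3 against 5. A count of 0 in library 2 allows up to 3 counts, or 0.0817 CPM. The two-sided exact permutation test gave p = 0.0286, the smallest that 4 against 4 allows, and 0.0571, again the smallest possible, with HS5 and HS6 summed. Where the diets do not overlap this p is fixed at its smallest value, so it adds nothing to the separation. With no filter the edgeR p was 0.041 and the adjusted p 0.253, for a log2 fold change of 1.57 that depends on the prior count.

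Set against the opposite displacement that another hour can give, the liver genes were mixed. The activator side was weakly measured, with Arntl at 8 to 25 counts a library and Npas2 too low to test. Whether the hour of collection differed was not tested. Of the 2 tested activators 1 was above 0 and 1 below, with a median log2 fold change of -0.014. Of the 5 Per and Nr1d genes 4 were above 0 and 1 below, with a median of 0.50 and only Per3 called, and both Cry genes were above 0. Per library, the mean log2 CPM of Arntl, Clock and Npas2 minus that of Per1, Per2, Per3, Nr1d1 and Nr1d2 was -4.98 ± 0.19 under the normal diet and -5.14 ± 0.22 under high salt (SD, n = 4 each). The diets overlapped and the difference of -0.17 was smaller than either SD. This level averages in Npas2, whose log2 CPM at 0 to 9 counts depends on the prior count, and with a prior count of 0.5 the difference was 0.034.

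With Npas2 left out, an alternative chosen after seeing the data, the difference between the diets was larger. Arntl and Clock minus the 5 repressors then stood at -3.38, -3.25, -3.38 and -3.64 in normal diet libraries 1 to 4 and at -3.66, -3.66, -4.54 and -3.99 in HS5 to HS8. The diets did not overlap, although normal diet library 4 and HS5 lay close together, and HS7 stood lowest. The level went from -3.41 ± 0.17 to -3.96 ± 0.42 (SD, n = 4 each), a difference of -0.55 that was -0.36 without HS7 and -0.45 without normal diet libraries 1 and 2. No test was made of a level over these genes. The mean of Arntl and Clock was 1.13 ± 0.30 log2 CPM under the normal diet and 1.11 ± 0.36 under high salt, and the mean of the repressors 4.55 ± 0.36 and 5.08 ± 0.14, without overlap for the repressors. Normal diet libraries 1 and 2 were the lowest of the 8 for the repressors, while HS7 was the lowest for Arntl and Clock.

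**Figure D2:**
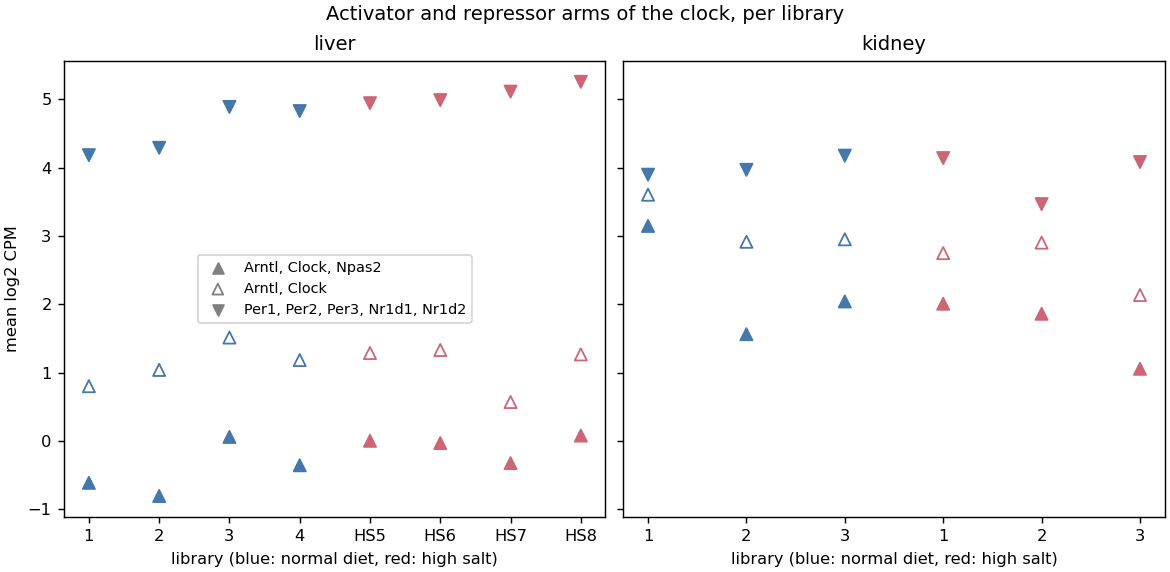
Mean log2 CPM of Arntl, Clock and Npas2 (filled upward triangles), of Arntl and Clock alone (open upward triangles) and of the Period and Nr1d repressors (downward triangles) in each liver (left) and kidney (right) library, normal diet in blue and high salt in red, 1 point per library and arm. In liver the repressors are lowest in normal diet libraries 1 and 2 (4.18 and 4.29), as are the 3 activators (-0.61 and -0.81, with Npas2 at 2 and 0 counts), while Arntl and Clock alone are lowest in HS7 (0.57). In kidney the 3 activators of normal diet library 1 stand highest at 3.15.

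In kidney, none of the 10 clock genes passed the test, and 9 of the 10 had log2 fold changes below 0. Over all genes, 0% of 15847 were called (edgeR adjusted p under 0.05), and an unadjusted p under 0.05 was reached by 318 of them (2.01%), by 0 clock genes, while DESeq2 called 11 genes and 0 clock genes. The median of the clock genes was -0.32, against -0.025 over all genes tested. The diets overlapped for each clock gene, where 6.92% of all kidney genes tested did not overlap.

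**Figure D3:**
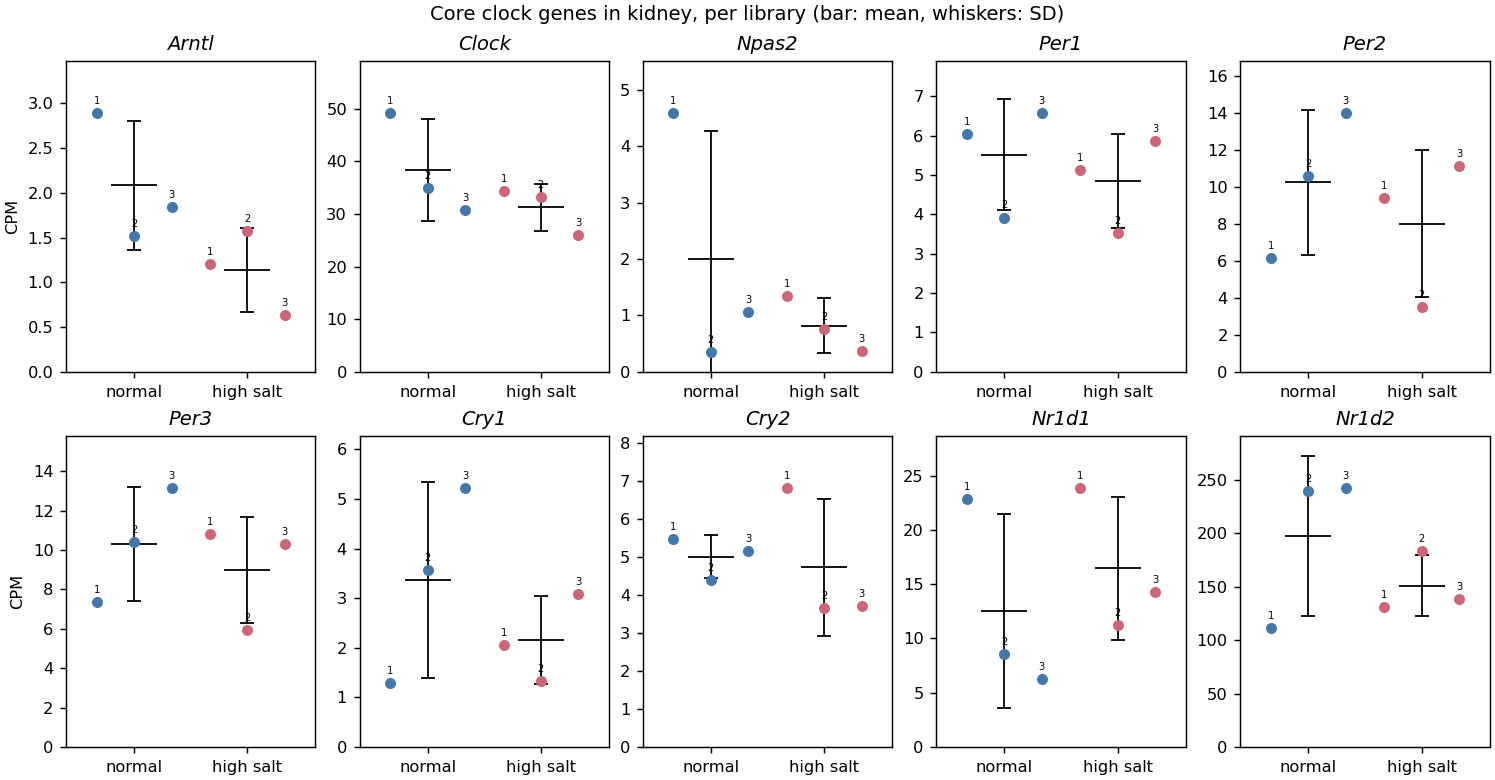
Normalised level (CPM, linear axis from 0) of the 10 clock genes in each kidney library, normal diet in blue and high salt in red, with the mean as a bar and the SD as whiskers (n = 3 each). Normal diet library 1 is the highest for Arntl, Clock and Npas2 and the lowest for Nr1d2 and Cry1, and the diets overlap in every panel.

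Kidney Arntl had 2.89, 1.52 and 1.84 CPM under the normal diet and 1.205, 1.57 and 0.636 CPM on high salt. Library 2 of high salt lay above library 2 of the normal diet, and the other 2 high salt libraries lay below all normal diet ones. The log2 fold change was -0.89 (SE 0.44, edgeR adjusted p = 1.00). Clock had 49.2, 34.9 and 30.7 CPM against 34.4, 33.2 and 26.1 CPM. Npas2 had 4.59, 0.351 and 1.06 CPM against 1.34, 0.755 and 0.363 CPM, where a single library, normal diet 1, held the high value. Without that library the log2 fold change of Npas2 moved from -1.29 (SE 0.87) to 0.19, and those of Arntl and Clock remained below 0.

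Kidney Per1 had 6.04, 3.92 and 6.58 CPM under the normal diet and 5.13, 3.53 and 5.86 CPM on high salt. Per2 had 6.19, 10.6 and 14.03 CPM against 9.41, 3.53 and 11.1 CPM. Per3 had 7.34, 10.4 and 13.2 CPM against 10.8, 5.92 and 10.3 CPM. High salt library 2 was the lowest of the 6 for all 3 Period genes, and without it the log2 fold changes of Per2 and Per3, -0.35 (SE 0.44) and -0.19 (SE 0.31), were 0.00071 and 0.035. That of Per1 was -0.19 (SE 0.29).

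Cry1 had 1.298, 3.57 and 5.22 CPM under the normal diet and 2.05, 1.32 and 3.09 CPM on high salt, with normal diet library 1 close to high salt library 2, the lowest pair. Cry2 had 5.49, 4.39 and 5.17 CPM against 6.83, 3.65 and 3.72 CPM. Nr1d1 had 22.8, 8.54 and 6.24 CPM against 23.9, 11.2 and 14.3 CPM, with library 1 the highest of each diet. Nr1d2 had 111, 239.9 and 243 CPM against 131, 184 and 139 CPM, and its lowest libraries were again normal diet 1 and high salt 1. The log2 fold changes were -0.63 (SE 0.52) for Cry1, -0.081 (SE 0.30) for Cry2, 0.39 (SE 0.49) for Nr1d1 and -0.39 (SE 0.33) for Nr1d2, none past the test.

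In kidney the 3 activators were all below 0 (median log2 fold change -0.89) and so were 4 of the 5 Per and Nr1d genes (median -0.19) and both Cry genes, so both arms lay mostly on the same side of 0 and none of the genes passed. The activator minus repressor level was -1.76 ± 0.89 under the normal diet and -2.25 ± 0.72 under high salt (SD, n = 3 each), with the diets overlapping. Leaving out each library in turn moved the difference of -0.49 between -0.82 and 0.015, and the last value came from leaving out normal diet library 1. With Npas2 left out, chosen after seeing the data, the kidney difference was -0.44 and the diets overlapped. Leaving out each library then moved it between -0.81 and -0.12.

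The diet effects of the tissues were compared in 1 fit of all 14 libraries. None of the clock genes differed between the tissues past the threshold, and neither did any of the 16633 genes tested (0% called by edgeR), of which 1681 (10.1%) had an unadjusted p under 0.05 while DESeq2 called 148. Per3 had a liver minus kidney difference in log2 fold change of 1.08 (SE 0.33, edgeR adjusted p = 0.294). For Per2 it was 1.22 (SE 0.51, edgeR adjusted p = 0.452) and for Npas2 2.86 (SE 1.15, edgeR adjusted p = 0.442). Npas2 was under the filter in liver and entered this fit only through its kidney counts. Its liver side rests on the few counts given above, and its kidney side on the high value of normal diet library 1. Leaving out each library moved the Npas2 difference between 1.38 and 3.44. For the other 7 genes the difference lay between 0.13 and 0.73.

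**Figure D4:**
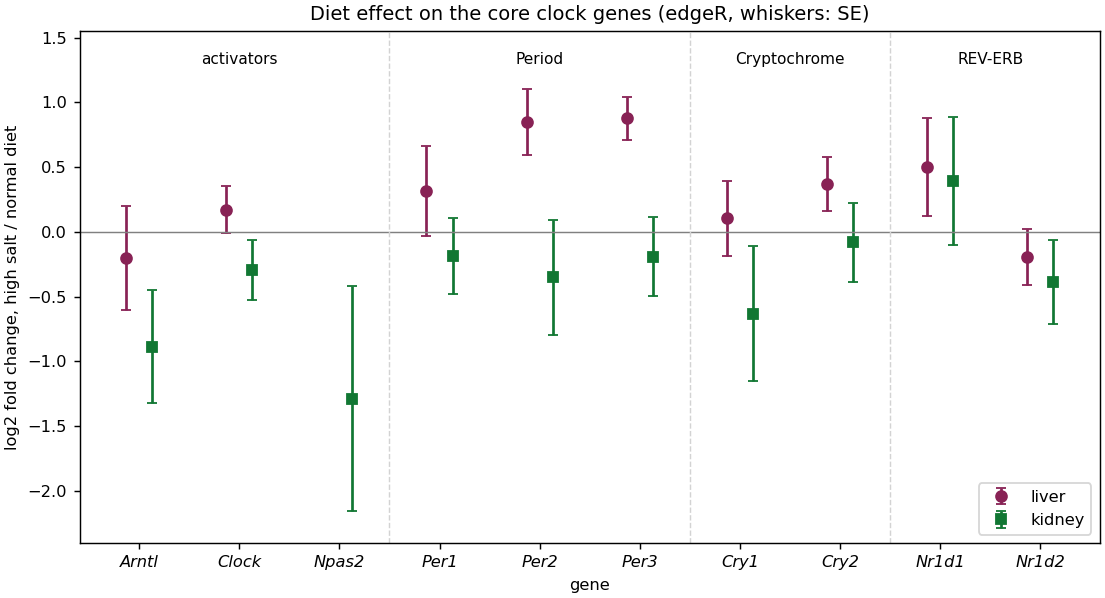
Log2 fold change (high salt over normal diet) of each clock gene in liver (circles) and kidney (squares), with the edgeR SE as whiskers, grouped by role. Liver Per3 at 0.88 is the only value past the test, liver Npas2 is not drawn because it was not tested, and 9 of 10 kidney values lie below 0.

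Per length, the REV-ERB genes were the most abundant clock genes in both tissues and Arntl and Npas2 the least. In liver, mean RPKM (CPM per 1000 bases of exon, n = 8) was 13.2 for Nr1d2, 10.5 for Nr1d1, 4.34 for Per1, 3.53 for Cry2, 3.38 for Per2, 2.20 for Per3, 1.47 for Cry1, 0.897 for Clock, 0.0481 for Arntl and 0.0199 for Npas2. Of the neighbours in this order only Clock and Arntl had ranges that did not overlap. In kidney (n = 6) it was 32.3 for Nr1d2, 4.71 for Nr1d1, 2.53 for Clock, 1.56 for Per2, 1.00 for Per3, 0.919 for Per1, 0.826 for Cry1, 0.771 for Cry2, 0.294 for Npas2 and 0.214 for Arntl. Here only Nr1d2 stood clear of its neighbour. Arntl lay above 1.61% of 14863 tested genes with a length in liver and above 6.34% of 15546 in kidney, and Nr1d2 above 84.7% and 92.5%.

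Per length, the 3 activators and Nr1d2 were higher in kidney, and Per1 and Cry2 were higher in liver. The tables of the tissues were quantified separately, so the ratios that follow are descriptions with no test. Liver to kidney ratios of mean RPKM were 0.224 for Arntl, 0.354 for Clock, 0.0677 for Npas2 and 0.408 for Nr1d2, and all kidney libraries lay above all liver libraries for these 4 genes. They were 4.72 for Per1 and 4.58 for Cry2, where all liver libraries lay above. For Cry1, Nr1d1, Per2 and Per3 the ratios lay between 1.79 and 2.23 and the tissues overlapped.

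Across the libraries of a tissue, Arntl was set against each of the other 9 clock genes, and none of the 9 relations passed in either tissue after adjustment. In liver (n = 8) the largest was with Nr1d2 (Pearson r = -0.59, exact permutation p = 0.123, adjusted 0.435, Spearman rho = -0.62, p = 0.115, adjusted 0.345, r = -0.41 without the 2 libraries farthest from the median of Arntl). With Nr1d1 it was r = 0.51 (exact permutation p = 0.199, adjusted 0.435, rho = 0.74, p = 0.0458, adjusted 0.206, r = 0.57 without those 2). In kidney (n = 6) the largest was with Clock (r = 0.86, exact permutation p = 0.0639, adjusted 0.463, rho = 0.49, p = 0.356, adjusted 0.903), which rested on 2 libraries, since r was -0.77 without them. For Nr1d1 in kidney r was 0.0015 (exact permutation p = 0.997, adjusted 0.997, rho = -0.26, p = 0.658, adjusted 0.903, and -0.96 over the 4 libraries left without the 2 farthest).

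Members of 1 family were compared in the same way, in 5 pairs per tissue chosen after their values were seen. The adjustment runs over these 5 pairs and does not cover that choice. Nr1d1 and Nr1d2, whose daily peaks lie close together in mouse liver, had negative correlations in both tissues. After adjustment these passed by Pearson r and not by Spearman rho. In liver r was -0.82 (n = 8, exact permutation p = 0.00866, adjusted 0.0216, Spearman rho = -0.79, p = 0.0279, adjusted 0.0919, r = -0.86 without the 2 libraries farthest from the median of Nr1d1). In kidney r was -0.95 (n = 6, exact permutation p = 0.00972, adjusted 0.0243, rho = -0.94, p = 0.0167, adjusted 0.0833, r = -0.98 without the 2 farthest). With HS5 and HS6 summed the liver r was -0.85 (exact permutation adjusted p = 0.0332). Without normal diet liver libraries 1 and 2, low in mitochondrial counts, it was -0.55 (n = 6, exact permutation p = 0.269, adjusted 0.449), and those 2 libraries alone are too few for a value. The kidney libraries give no such split.

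Per2 and Per3 had a positive correlation in kidney that passed by Pearson r and not by Spearman rho. It was r = 0.98 (n = 6, exact permutation p = 0.00833, adjusted 0.0243, rho = 0.77, p = 0.103, adjusted 0.257, r = 0.82 without the 2 libraries farthest from the median of Per2). In liver Per3 separated the diets, so its relation with Per2 is not given over both, and 4 libraries of 1 diet are too few to test. The other pairs, Cry1 with Cry2, Per1 with Per2 and Per1 with Per3, did not pass in either tissue.

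**Figure D5:**
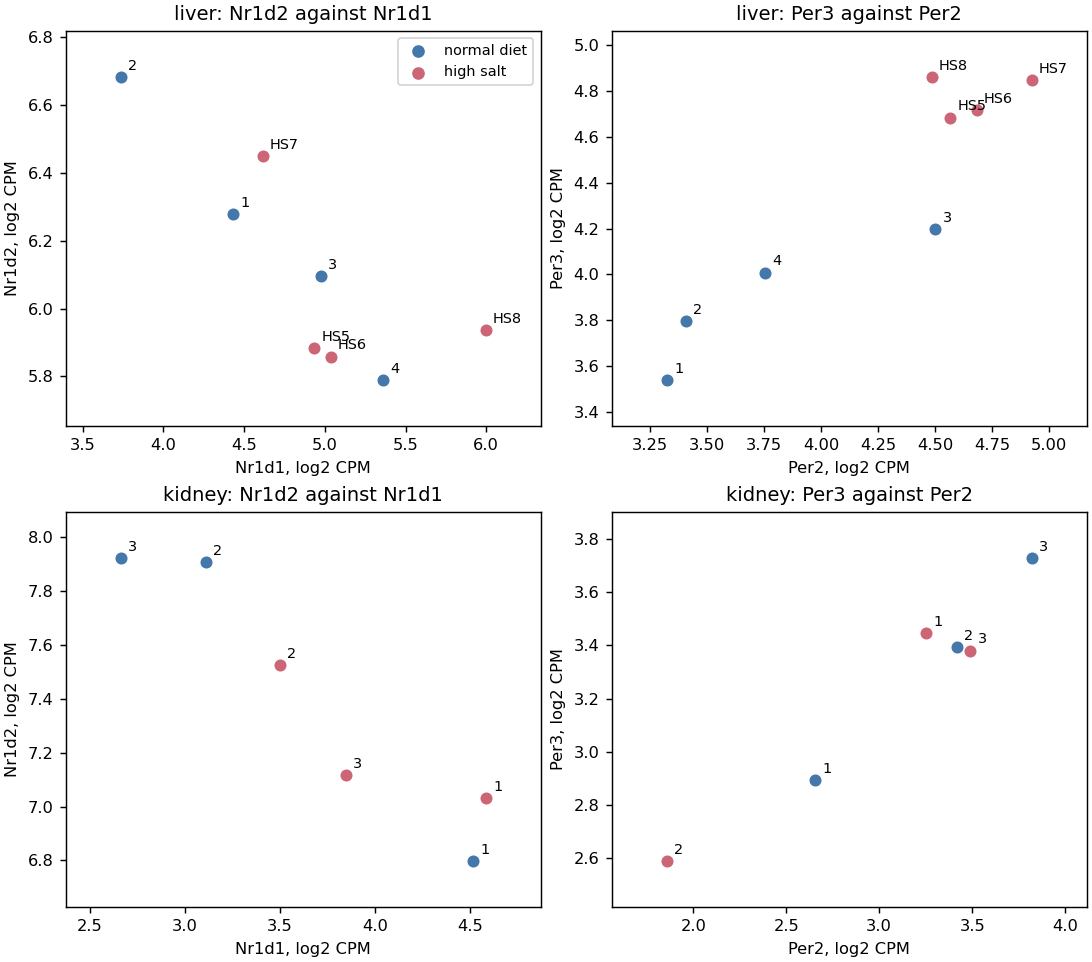
Nr1d2 against Nr1d1 (left) and Per3 against Per2 (right) in liver (top) and kidney (bottom), each point 1 library in log2 CPM (both axes log2), normal diet in blue and high salt in red. Nr1d2 tends to be lower where Nr1d1 is higher in both tissues (r = -0.82 in liver and -0.95 in kidney, pairs chosen after seeing the values). The liver diets form separate groups in the Per3 plot.

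Among the factors that the clock drives, Hlf rose in the livers of mice on high salt. Of 9 tested output and accessory factors Hlf was called higher and none lower, with a list median of 0.33. Hlf, a D-box activator, had 24.0, 21.7, 25.8 and 21.8 CPM under the normal diet and 48.7, 47.5, 35.5 and 40.5 CPM on high salt. The diets did not overlap, and the log2 fold change was 0.88 (SE 0.15, edgeR adjusted p = 0.0364). As with Per3, the call was lost without normal diet library 1 (adjusted p = 0.0969) or 2 (0.095), without HS5 (0.154), HS6 (0.158) or HS8 (0.105), with HS5 and HS6 summed (0.16) and without normal diet libraries 1 and 2 together (0.0991). The log2 fold change of Hlf lay between 0.82 and 0.95 over its 19 alternatives.

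Nfil3, the D-box repressor, had 12.5, 16.3, 23.5 and 34.6 CPM under the normal diet and 8.59, 8.29, 7.83 and 9.16 CPM on high salt. All high salt libraries were lower, but the log2 fold change of -1.36 (SE 0.29) did not pass (edgeR adjusted p = 0.0597). Rora, an activator at ROR elements, had 16.3, 23.6, 29.1 and 19.4 CPM against 41.8, 42.0, 37.2 and 31.2 CPM, with no overlap (0.78, SE 0.20, adjusted p = 0.0867). Of the other D-box activators, Tef had 155 ± 15.1 against 194 ± 4.596 CPM (SD, n = 4 each, 0.32, adjusted p = 0.224) and Dbp, often the most strongly cycling of them, 66.1 ± 12.0 against 83.2 ± 19.9 CPM (0.33, adjusted p = 0.365). Ciart, a repressor of the BMAL1 complex, was at -0.57 (adjusted p = 0.24). None of these 5 passed.

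In kidney none of the 9 tested factors was called. Hlf stood at 74.3 ± 18.3 and 76.2 ± 19.2 CPM (SD, n = 3 each, log2 fold change 0.038). Ciart had 1.25, 1.93 and 1.06 CPM under the normal diet and 3.03, 2.14 and 2.54 CPM on high salt without overlap (0.87, edgeR adjusted p = 1.00). The liver minus kidney difference in the diet effect on Ciart was -1.44 (SE 0.40) and did not pass (edgeR adjusted p = 0.271). Dbp was at 0.50 and Nfil3 at -0.37. Rorb was under the filter in kidney and was not in the liver table.

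Proteins that modify the clock proteins, which set the speed of the loop, gave no call in either tissue over 12 tested genes. In liver the highest were Csnk1e, a kinase of PER (0.71, edgeR adjusted p = 0.098), and Gsk3b (0.49). Wdr5 was at -0.26. In kidney Timeless (0.44) and Nono (0.12) were highest and Sirt1 (-0.25) was lowest. The list medians were 0.11 in liver and -0.048 in kidney.

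Clock-controlled outputs gave no call over 11 tested genes in liver and 10 in kidney. Liver Wee1, a cell cycle kinase driven through E-boxes, had 10.1, 10.1, 8.90 and 2.57 CPM against 14.8, 14.6, 13.96 and 12.0 CPM (0.81, edgeR adjusted p = 0.228). Lonrf3 was at 0.70, Tspan4 at -0.54 and Elovl3, a fatty acid elongase, at -0.50. Kidney Cirbp, a cold-inducible RNA-binding protein, was at 0.44, Alas1, the first enzyme of heme synthesis, at 0.32, Noct at -0.49 and Lonrf3 at -0.47. The list medians were -0.025 in liver and -0.10 in kidney.

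Glucocorticoid-induced genes, which follow a hormone that itself has a daily rhythm and acts on Per1, gave no call in either tissue (5 tested in each). In liver Sgk1 was at 0.24, Klf9 at -0.17, Fkbp5 at -0.80 and Tsc22d3 at -0.48. Fkbp5 varied widely on the normal diet (48.7 ± 43.9 CPM, SD, n = 4). In kidney Fkbp5 was at 0.26, Klf9 at -0.036, Tsc22d3 at -0.55 and Sgk1 at -0.30. The list medians were -0.24 and -0.10.

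Other features of the liver libraries differed as well. Summed immune markers were 49.5 to 139 CPM under the normal diet and 35.0 to 68.4 CPM on high salt, stromal markers 12.6 to 24.8 and 22.0 to 35.7 CPM, and endothelial markers 15.5 to 39.3 and 25.3 to 46.8 CPM. Of the markers tested, 6 of 7 immune genes lay below 0 and all 4 stromal and all 3 endothelial genes above 0, and none passed. The immune sum was highest in normal diet library 4, where the neutrophil genes S100a8 and S100a9 had 758 and 1318 counts against at most 30 and 44 in the other liver libraries. No marker of these 4 types was at 0 in a liver library. The hepatocyte sum, which was mostly Alb, did not overlap between the diets, as given above. The low mitochondrial share was found in normal diet libraries 1 and 2, and the highest liver sums of proximal tubule markers in HS7 and HS8. The part of these in the liver differences of the clock genes was not tested. Within the 6 liver libraries of higher mitochondrial share, Per3 lay at 18.3 and 16.05 CPM under the normal diet and 25.7 to 29.0 CPM on high salt. Its log2 fold change there was 0.68 and did not pass (edgeR adjusted p = 0.0954). Over the same libraries Per2 was at 0.50, Per1 at -0.21, Cry2 at 0.066 and Nr1d1 at 0.065.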

How the data were processed

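Libraries were made with the SMARTer mRNA kit from total RNA of liver and kidney, per the labels' protocols. The authors deposited expected counts per gene, which the file names credit to Partek E/M, and a normalized signal per gene that the authors deposited separately. Partek 7.0, STAR 2.5.3a, DESeq2 and mm10 are named in the submitters' processing notes, with no roles given. The number of unused per-sample columns was 0.

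After rounding, these expected counts entered edgeR 4.0.16 in R 4.3.3 (quasi-likelihood test, TMM, filterByExpr by diet, Benjamini-Hochberg over all genes tested, threshold 0.05), per tissue, and in 1 fit for the interaction. The fits were checked on simulated data with independent libraries and planted changes larger than those of liver Per3 and Hlf. That check does not cover changes of their size or libraries as alike as HS5 and HS6. CPM uses TMM library sizes, log2 CPM a prior count of 2, and RPKM the union of exons in GENCODE M21 (GRCm38), which names 97.8% of liver and 97.7% of kidney genes. Alternatives used DESeq2 1.42.0, limma 3.58.1 on log2 of the deposited normalized signal, other scalings and filters, and fewer libraries. Exact permutation tests were two-sided. The floor of 3 counts covers counting error only.

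The clock genes and the gene lists were chosen with earlier results of these data known. Named genes are all clock genes, list genes past the threshold, the 2 highest and 2 lowest of each list per tissue, and the 5 genes most like and least like Arntl per tissue among those with a mean of at least 50 counts. Tef, liver Dbp, kidney Hlf and Thra fall outside this rule and were named after their values were seen, and some genes that the rule names are not reported here. The human transgene was not analysed here.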

Additional observations from a re-analysis of the deposited data

Results flagged for a closer look

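In 6 of 96 groups of 4 liver libraries, 1 library lay far from the other 3. A rate of 1 in 20, which takes the 4 libraries as independent, would give about 4.8. That rate may not hold here, since HS5 and HS6 were close to each other and the groups share libraries. Whether 6 differs from chance was not tested, and cell type markers were not among the groups. Nr1d2 in HS7 stood at 87.2 CPM, with the next high salt library at 61.2 CPM. Ciart in HS8 stood at 18.9 CPM, with the next at 11.3 CPM. Fkbp5 in HS8 was low at 13.5 CPM, with the next at 31.4 CPM, and Klf9 in HS8 was low at 37.4 CPM, with the next at 60.2 CPM. Gsk3b in HS7 was low at 14.9 CPM, with the next at 17.95 CPM. Wee1 in normal diet library 4 was low at 2.57 CPM, with the next at 8.90 CPM. Groups of 3 kidney libraries were not checked in this way.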

How the results depend on the processing

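The number of liver genes called, 152, was 1122 with DESeq2, 260 with all 14 libraries in 1 fit, 12 with HS5 and HS6 summed, 52 without normal diet libraries 1 and 2, and 12 to 765 on leaving out each library. The number of clock genes called in liver, 1, was 2 with DESeq2, 0 with HS5 and HS6 summed, 0 without normal diet libraries 1 and 2, and 0 to 2 on leaving out each library. Kidney calls, 0, were 11 with DESeq2. Interaction calls, 0, were 148 with DESeq2, 2 with at least 10 counts in every library, and 0 to 7 on leaving out each library.

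Leaving out each library moved log2 fold changes across 0 for liver Arntl (-0.39 to 0.0041) and Cry1 (-0.14 to 0.25), for kidney Npas2 (-1.87 to 0.19), Per2 (-0.66 to 0.00071), Per3 (-0.38 to 0.035) and Cry2 (-0.44 to 0.072), and for the interaction of Nr1d1 (-0.63 to 0.50) and Nr1d2 (-0.0068 to 0.47). Without normal diet libraries 1 and 2, liver Per1 was -0.21, Nr1d2 0.10, and the liver correlations of Cry1 with Cry2 0.062, Per1 with Per2 -0.82 and Per1 with Per3 -0.44, against -0.25, 0.64 and 0.68 over all 8. The causes were not tested. The pairs of clock genes and this alternative for them were chosen after seeing the data.

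In kidney, same-numbered libraries had correlated deviations of 0.41, 0.37 and -0.090, so the numbers were not taken to pair the samples, and numbers 1 and 2 correlated best with their own. With the replicate block 0 genes and 0 clock genes were called, and Arntl was at -0.91. Longest transcripts in place of the exon union gave liver RPKM of 0.0905 for Arntl and 3.53 for Per3, and changed the order of some neighbours. In liver Per3 then stood above Per2 (3.40), and Cry2 (5.62) above Per1 (5.23). In kidney Arntl (0.403) stood above Npas2 (0.333), Per3 (1.61) above Per2 (1.57) and Cry2 (1.23) above Per1 (1.11). The liver activator minus repressor difference of -0.17 was -0.55 with Npas2 left out, chosen after seeing the data. Liver Arntl and Npas2 rest on at most 25 and 9 counts a library, which limits their precision.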

Other observations

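Genes most like Arntl across libraries were not other clock genes. In liver the 5 highest Pearson correlations of log2 CPM with Arntl, over 12191 genes and 8 libraries, were those of Slx4ip (0.95), Lgals3bp (0.92), Map3k13 (0.91), Tgif1 (0.90) and Gldc (0.89). The 5 lowest were those of Mars2 (-0.93), 1110059G10Rik (-0.91), Fam104a (-0.90), Nasp (-0.90) and Gm27219 (-0.90). In kidney, over 11825 genes and 6 libraries, the highest were Sec23a (1.00), Pclo (0.99), Tyw3 (0.99), Ypel2 (0.98) and Cplane1 (0.98), and the lowest Cfdp1 (-0.99), Ighm (-0.99), Anxa7 (-0.99), Wdr3 (-0.99) and Cd44 (-0.98). These are descriptions across libraries that share depth and composition, and the liver values rest on 8 to 25 Arntl counts a library.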
